A study of Mus musculus with 8 samples.

Results

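A set of 10 transcription factor genes from 3 families, Egr1, Egr2, Egr3, Nr4a1, Nr4a2, Nr4a3, Klf2, Klf4, Klf6 and Klf10, were followed across mouse bone marrow-derived macrophages of 2 genotypes before and after LPS. They were chosen by symbol as early response factors, and all 10 of 10 were found among the 55226 genes of the table. RNA was sequenced from 8 samples in 4 groups of 2, from C57BL/6 mice: PtipWT (WT) and PtipcKO (conditional knockout, cKO), each at 0 h and after 6 h with 100 ng/ml of LPS, the endotoxin of Gram-negative bacteria. Marrow cells of every group had spent 7 days in 10% fetal serum and M-CSF (10 ng/ml), the macrophage growth factor. PTIP, the protein of Paxip1, belongs to a complex that methylates histone H3 at lysine 4, and the series asks how it bears on inflammatory responses. The labels give neither the Cre driver nor the deleted exons, the age of the mice or the number of mice behind a sample, so p-values reflect sample-to-sample spread, which may be technical.

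The values are rlog, log2 expression after a transformation that shrinks poorly covered genes to their average. A difference of 1 is a 2-fold change, and changes of low genes are understated. Read depth is unknown. Paxip1 (GRCm38 chromosome 5, 27740080 to 27791691) had rlog values of 4.50 and 4.50 in resting WT samples and 3.82 and 4.08 in those given LPS. The cKO samples read 2.54 and 2.48 at rest and 2.54 and 2.63 with LPS. All 4 cKO samples lay below all 4 WT samples, but without the deleted exons it is not known which reads this level counts. All 9 macrophage markers passed the filter described below, among them Adgre1 (14 to 15.18), Cd68 (14.42 to 14.83) and Csf1r (12.75 to 13.44). Of the 5 T and NK cell and 3 B cell markers 0 passed it. The highest were Klrb1c (1.98 to 3.51) and Cd79a (1.35 to 1.76), and Cd3e and Pax5 stayed below 0. Some marker sums, log2 of the added linear levels of a list, moved with the groups. Such a sum leans on the highest genes of its list. The highest macrophage gene was Lyz2 (18.13 to 19.31), and the next, Cd14, reached 15.82. The highest classical monocyte gene was Ly6c2 (9.26 to 12.05), and the next, Ccr2, reached 7.84. For the 9 macrophage genes the sum was 19.24 to 19.53 in WT and 18.42 to 18.73 in cKO. For 3 classical monocyte genes (Ly6c2, Ccr2 and F13a1) the sum was 11.68 and 10.42 in resting WT samples, 12.1 and 10.67 with LPS, and 9.5 to 9.79 in the 4 cKO samples. For 6 nonclassical monocyte genes it was 11.06 and 11.07 in WT and 10.67 in both cKO samples at 0 h, and 11.36 to 11.8 with LPS. For 8 neutrophil genes, of which S100a8 and Camp passed the filter and Retnlg was listed at 0, it was 6.78 to 8.06 in WT and 7.93 to 8.74 in cKO. The T and NK cell sum was 2.45 to 3.03 in WT and 3.47 to 3.7 in cKO. With LPS the endothelial sum went from 5.57 to 6.06 up to 8.77 to 9.34, and the stromal sum from 3.72 to 4.25 up to 6.11 to 6.4. In each of these 2 lists 1 gene passed the filter, Kdr and Pdgfrb. For 5 dendritic cell genes it was 9.87 and 11.41 in WT at 0 h and 10.41 to 11.45 in the other samples. In a bulk sample fewer cells of a type and less RNA per cell cannot be told apart.

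The Egr genes encode zinc finger proteins whose transcription starts within minutes of a growth factor, stress or Toll-like receptor signal, through ERK kinases and serum response factor (SRF) bound at CArG boxes. The Nr4a genes encode orphan nuclear receptors that act without a known physiological ligand and are induced through the cAMP response element (CRE) and calcium and kinase signals. Nr4a1 is required for the nonclassical monocyte subset. Klf proteins bind GC-rich and CACCC sequences. Klf2 and Klf4 are linked to quiescence and monocyte differentiation, whereas Klf6 and Klf10 are induced by cytokines, growth factors and TGF-beta. Many early genes rise and decay soon after a signal, and the only stimulated time here is 6 h.

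Promoters are shown because the 3 Nr4a genes shared a repeated sequence feature that their selection did not use. Some other members held it in fewer copies. RefSeq windows from 250 bases before to 50 after a transcript start (GRCm38.p6) were found for 7 of the 10 genes, 11 windows in all, 5 of them for alternative starts of Egr2. Each line runs 5′ to 3′ in the gene's direction and stops before any base of its window that GENCODE annotates as an exon of that gene. Capitals mark the CRE core TGACG on either strand for Nr4a1 (chr15:101266596-101266845, plus strand), Nr4a2 (chr2:57124004-57124253, minus strand) and Nr4a3 (chr4:48045055-48045152, plus strand). They mark the CArG box for Egr2 (chr10:67537619-67537868, plus strand), the EGR site GCGNGGGCG on either strand for Klf4 (chr4:55532476-55532725, minus strand) and the GC box GGGCGG on either strand for Klf6 (chr13:5861239-5861481, plus strand), the gene that rose with LPS.
Nr4a1: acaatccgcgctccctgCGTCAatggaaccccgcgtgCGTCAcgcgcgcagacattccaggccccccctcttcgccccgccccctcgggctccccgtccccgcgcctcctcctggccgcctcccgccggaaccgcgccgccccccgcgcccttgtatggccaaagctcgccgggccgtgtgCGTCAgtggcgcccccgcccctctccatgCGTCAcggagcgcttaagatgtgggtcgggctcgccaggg
Nr4a2: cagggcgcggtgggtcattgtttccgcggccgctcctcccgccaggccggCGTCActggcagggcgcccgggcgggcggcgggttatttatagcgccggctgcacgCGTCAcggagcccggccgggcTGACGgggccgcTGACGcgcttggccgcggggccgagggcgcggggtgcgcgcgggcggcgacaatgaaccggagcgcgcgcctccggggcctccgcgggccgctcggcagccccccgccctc
Nr4a3: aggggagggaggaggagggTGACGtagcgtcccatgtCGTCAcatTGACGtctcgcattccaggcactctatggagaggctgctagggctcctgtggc
Egr2: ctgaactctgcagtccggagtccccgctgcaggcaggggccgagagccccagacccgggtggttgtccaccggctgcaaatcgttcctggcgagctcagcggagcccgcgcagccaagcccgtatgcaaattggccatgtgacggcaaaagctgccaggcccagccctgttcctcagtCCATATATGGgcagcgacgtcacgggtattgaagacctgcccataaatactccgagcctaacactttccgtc
Klf4: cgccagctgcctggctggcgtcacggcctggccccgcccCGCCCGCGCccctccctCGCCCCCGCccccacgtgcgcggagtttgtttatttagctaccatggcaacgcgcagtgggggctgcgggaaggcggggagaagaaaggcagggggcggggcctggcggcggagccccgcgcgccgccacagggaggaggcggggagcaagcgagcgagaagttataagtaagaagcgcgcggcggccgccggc
Klf6: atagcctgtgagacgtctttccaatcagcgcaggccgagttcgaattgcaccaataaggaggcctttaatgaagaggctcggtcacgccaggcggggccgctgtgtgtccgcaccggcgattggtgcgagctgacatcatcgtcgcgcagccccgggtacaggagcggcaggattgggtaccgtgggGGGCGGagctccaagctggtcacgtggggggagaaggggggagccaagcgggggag

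The CRE core occurred 4 times in each of the 3 Nr4a windows, where 20.8% of 32851 windows of this length held it at all and 0.231% held it 4 times or more. In Nr4a3 the fourth copy lies past the stretch shown. The core was not particular to the Nr4a genes and was present in 8 of the 11 windows. Egr2 had it at 2 positions, seen in 3 of its windows, and Klf2 and Klf4 had it at 1 position each. Egr2 had CArG boxes at 2 positions, seen in 4 of its 5 windows because 3 of these overlap and hold the same box, and 1.63% of all windows held a box. The Klf4 window held 2 EGR sites, against 0.813% of all windows with 2 or more. The cut-offs of 4 and 2 copies equal the counts in these same windows, so these shares describe the matches and test nothing. All windows were counted, whatever their G and C content. The EGR site was present once in the Nr4a1, Nr4a2 and Klf2 windows and in 5.55% of all windows. GC boxes were common, in 8 of the 11 windows and 35.7% of all, and can overlap EGR sites. A MEF2 site occurred in the Nr4a2 and Klf2 windows (3.19% of all) and an NF-kB site in those of Nr4a1 and of 1 Egr2 start (8.46% of all). The full CRE TGACGTCA (1.79%), the AP-1 site TGACTCA (5.2%) and the Nr4a monomer site AAAGGTCA (1.51%) had no match. These windows are rich in G and C, from 56% to 81.7% against a median of 52.7% over all windows, and a match is a run of letters, not a site shown to be bound.

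**Figure D1:**
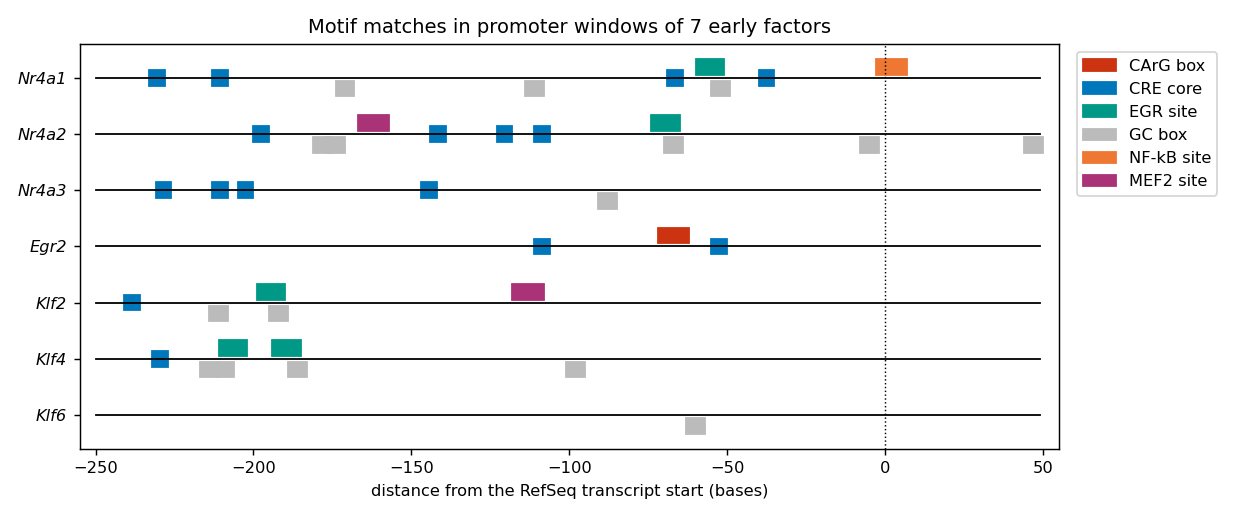
Positions of motif matches in the promoter windows of 7 genes, in bases from the RefSeq transcript start (dotted line). Boxes are coloured by motif, and the start shown for Egr2 is the one printed in the text. Each Nr4a window carries 4 CRE cores (blue), all upstream of the start.

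The members covered a wide range of expression. After subtraction of log2 of the exonic length in kilobases, the mean rlog level per kilobase over the 8 samples was 9.73 for Klf6, 7.78 for Nr4a1, 7.37 for Egr2, 7.19 for Klf10 and 7.11 for Egr1. It was 5.42 for Klf4, 3.46 for Nr4a2, 2.86 for Klf2, 1.74 for Nr4a3 and -1.79 for Egr3. In WT macrophages that had not received LPS, the mean rlog without this subtraction was 10.72 for Egr1, 10.3 for Egr2 and 10.62 for Nr4a1. By group mean, 7 of the 10 genes were highest in resting WT, 2 in LPS-treated WT (Nr4a3 and Klf6) and 1 in resting cKO (Klf10). The lowest mean was in cKO after LPS for 8 and in cKO at 0 h for Nr4a3 and Klf6. These counts include Egr3, whose rlog averaged 0.35 and whose LPS mean was 0.15 in both genotypes.

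**Figure D2:**
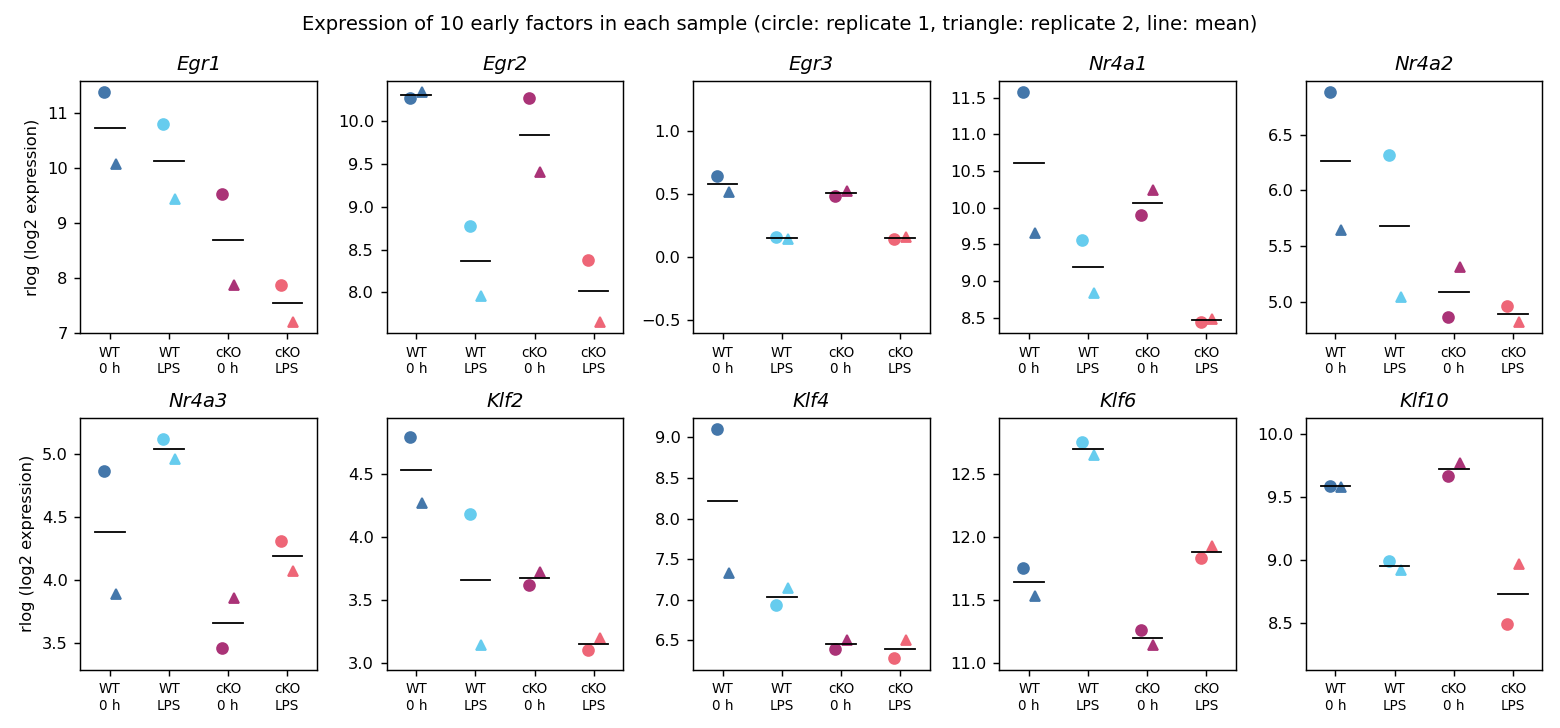
rlog of each of the 10 genes in every sample, by group, with a circle for replicate 1, a triangle for replicate 2 and a line at the mean; each panel has its own vertical scale. Klf4 lies lower in all 4 cKO samples than in any WT sample, and Klf6 has close replicates and a rise after LPS in both genotypes.

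The limma test took in the 11543 genes whose rlog averaged 3 or more over the samples, at an adjusted p (Benjamini-Hochberg over those genes) under 0.05. Of the 10 members 9 passed this filter. Egr3 did not, with rlog values of 0.65 and 0.52 in resting WT, 0.49 and 0.53 in resting cKO, and 0.15 to 0.16 in the 4 LPS samples. Its 2 times did not overlap in either genotype. With no filter on low values limma called it lower with LPS in both. The authors' deposited table gave it a log2 fold change of -4.32 with LPS in WT and -3.99 in cKO, both with an adjusted p of 1.

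After 6 h of LPS, Egr2 and Klf10 were lower and Klf6 was higher than at rest in both genotypes, and Nr4a1 was lower in cKO. In WT, 3 of the 9 tested members were called, where 42.2% of all tested genes were: 1 rose (22.5% of all) and 2 fell (19.7% of all). In cKO, 4 were called (37% of all): 1 rose (19.6% of all) and 3 fell (17.5% of all). In each genotype the samples of the 2 times did not overlap in 2 members with LPS higher and 5 with LPS lower. Those patterns held in 35.7% and 35.6% of all tested genes in WT, and in 35.6% and 36.9% in cKO. Egr1 is among the 5 in cKO, although its nearest resting and LPS values both round to 7.86. The median difference of the 9 was -0.63 in WT and -0.52 in cKO, where the medians of all tested genes were -0.01 and -0.02. With 9 genes, these counts are near what the shares of all genes would give. Fits with a replicate block called more members and more genes over all, as given in the last section. Quantile normalization turned the balance over all genes, from 2598 higher and 2273 lower to 2220 and 2771 in WT, and from 2260 and 2015 to 2012 and 2501 in cKO. Sums of endothelial and stromal markers were also higher with LPS, and their part in these results was not tested.

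Among the Egr genes, Egr2 (chromosome 10, 67535475 to 67542188), which supports macrophage differentiation, had rlog values in WT of 10.27 and 10.33 at rest and 8.77 and 7.96 with LPS. In cKO it was at 10.26 and 9.40 before and 8.38 and 7.66 after. Both LPS samples lay below both resting samples in each genotype. The fall was 1.93 log2 units in WT (limma, SE 0.35, adjusted p = 0.00277) and 1.81 in cKO (limma, SE 0.35, adjusted p = 0.00456). Egr2 kept this call in all 17 alternatives in both genotypes, with values from -2.34 to -1.53 in WT and from -2.24 to -1.39 in cKO. Egr1 (chromosome 18, 34859823 to 34864984), the family's prototype, behaved otherwise. In WT its values were 11.38 and 10.07 at rest and 10.81 and 9.44 with LPS, which overlap, and the difference of -0.60 (SE 0.64) had a limma adjusted p of 0.49. In cKO it read 9.52 and 7.86 before and 7.86 and 7.20 after, a difference of -1.16 (limma, SE 0.64, adjusted p = 0.193).

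Of the Nr4a receptors, Nr4a1 (chromosome 15, 101254269 to 101274795) had values in WT of 11.57 and 9.66 at rest and 9.56 and 8.84 with LPS. In cKO they were 9.90 and 10.24 before and 8.45 and 8.49 after. LPS samples lay below resting samples in both genotypes. The difference was -1.42 in WT (limma, SE 0.52, adjusted p = 0.0549) and -1.60 in cKO (limma, SE 0.52, adjusted p = 0.0397), so the fall in cKO passed and the WT difference did not, and the test of the difference between these changes gave -0.18 (limma, SE 0.73, adjusted p = 0.973). The cKO call ended with no filter on low values (adjusted p = 0.194), with no variance trend (adjusted p = 0.0507), with a robust fit (adjusted p = 0.0704) and without any 1 of the 4 cKO libraries (adjusted p = 0.0824 to 0.143). The WT difference passed under quantile normalization (-1.74, adjusted p = 0.0304). It was -2.38 (adjusted p = 0.00113) with WT 0 h replicate 2 left out and -0.47 (adjusted p = 0.266) with replicate 1 left out. Nr4a2 (chromosome 2, 57106830 to 57124003) read 6.88 and 5.64 in resting WT samples and 6.32 and 5.04 with LPS, and 4.86, 5.31, 4.96 and 4.82 in the cKO samples in the same order. Neither difference passed, at -0.58 in WT (limma, SE 0.48, adjusted p = 0.359) and -0.19 in cKO (limma, SE 0.48, adjusted p = 0.784). Nr4a3 (chromosome 4, 48045153 to 48086447) was the one receptor gene with a higher mean after LPS, at 4.87 and 3.89 before and 5.12 and 4.96 after in WT, and 3.46 and 3.86 before and 4.31 and 4.07 after in cKO. Its resting and LPS samples did not overlap, but the differences of 0.66 (limma, SE 0.31, adjusted p = 0.124) and 0.53 (limma, SE 0.31, adjusted p = 0.223) did not pass. The WT difference passed with WT 0 h replicate 1 left out (1.15, adjusted p = 0.0164).

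The Klf genes went in opposite directions. Klf6 (chromosome 13, 5861482 to 5870394), a zinc finger activator induced by inflammatory signals, was in WT at 11.75 and 11.53 at rest and 12.75 and 12.65 with LPS. In cKO it was at 11.26 and 11.14 before and 11.83 and 11.93 after. Its rise was 1.06 log2 units in WT, or 2.08-fold (limma, SE 0.13, adjusted p = 0.00035), and 0.68 in cKO, or 1.6-fold (limma, SE 0.13, adjusted p = 0.00435). Quantile normalization lowered these to 0.38 (adjusted p = 0.0485) and 0.21 (adjusted p = 0.243), which ended the cKO call. Klf10 (chromosome 15, 38291463 to 38300706), the TGF-beta inducible early gene, fell in both genotypes. In WT it read 9.59 and 9.58 at rest and 8.99 and 8.92 with LPS. In cKO it read 9.67 and 9.77 at rest and 8.49 and 8.97 with LPS, again with no overlap. The fall was 0.63 log2 units in WT (limma, SE 0.16, adjusted p = 0.0138) and 0.99 in cKO (limma, SE 0.16, adjusted p = 0.00194). The WT call ended with no filter on low values (adjusted p = 0.0547) and without WT 0 h replicate 1 (adjusted p = 0.0598), WT 0 h replicate 2 (adjusted p = 0.054) or WT LPS replicate 2 (adjusted p = 0.0539).

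Klf4 (chromosome 4, 55527143 to 55532466), a factor of monocyte differentiation, had values in WT of 9.10 and 7.33 at rest and 6.93 and 7.15 with LPS, against 6.40 and 6.51 before and 6.28 and 6.51 after in cKO. The WT difference was -1.17 (limma, SE 0.46, adjusted p = 0.0708), and in cKO it was -0.06 (limma, SE 0.46, adjusted p = 0.928). Without WT 0 h replicate 1, the sample at 9.10, the WT difference was -0.29 (adjusted p = 0.341), and without WT 0 h replicate 2 it was -2.06 (adjusted p = 0.00049). Klf2 (chromosome 8, 72319033 to 72321656), a factor of quiescence, read 4.79 and 4.27 at 0 h and 4.18 and 3.14 after LPS in WT, and 3.62 and 3.72 before and 3.10 and 3.20 after in cKO. Its differences of -0.87 (limma, SE 0.33, adjusted p = 0.0653) and -0.52 (limma, SE 0.33, adjusted p = 0.256) did not pass, although its times did not overlap. The WT difference passed with WT LPS replicate 1 left out (-1.39, adjusted p = 0.00678). The authors' deposited table called Egr2, Klf4, Klf6 and Klf10 with LPS in WT and Egr2, Nr4a1, Klf6 and Klf10 in cKO. It called 6.17% of its 55226 genes in WT and 5.87% in cKO, with genes at 0 in every sample included. Its log2 fold changes for Klf4 were -1.71 in WT (adjusted p = 0.00434) and -0.09 in cKO (adjusted p = 0.925).

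**Figure D3:**
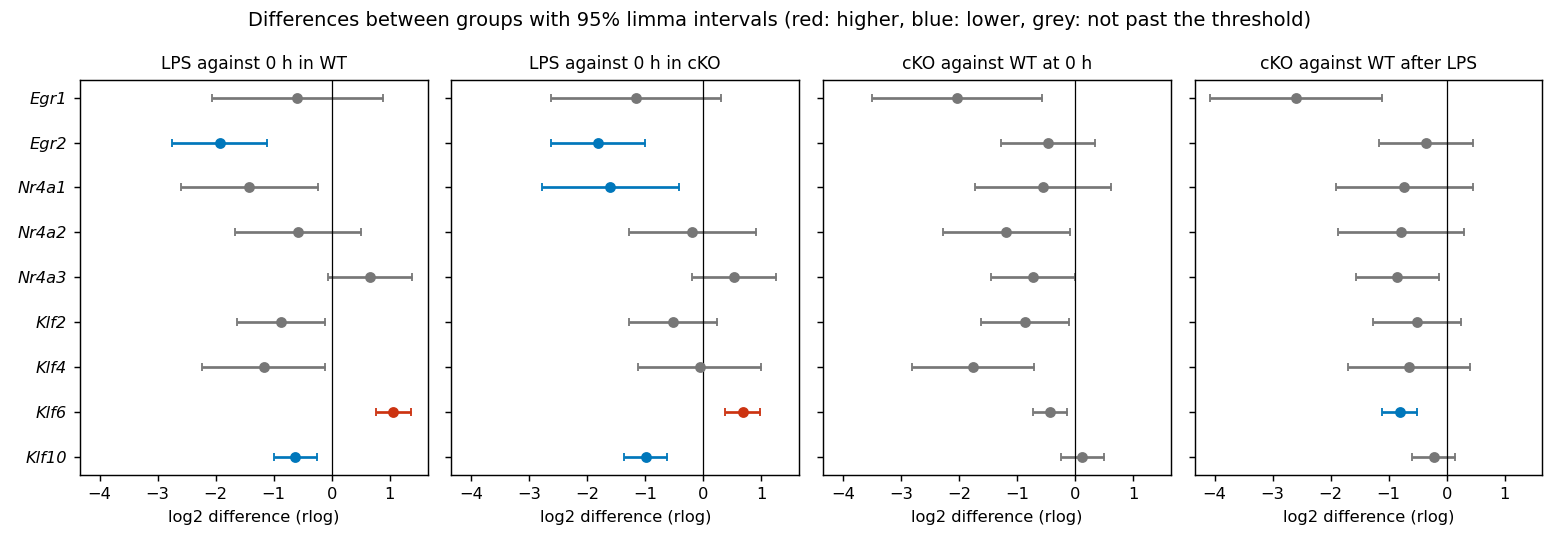
Log2 differences of the 9 tested members in 4 comparisons with 95% limma intervals; red points passed the threshold as higher, blue as lower and grey points did not pass. Egr2, Klf6 and Klf10 passed in both LPS comparisons, and Klf6 is the member that passed between genotypes after LPS. The intervals of Nr4a1 also lie below 0 in both LPS comparisons, of which it passed in cKO only.

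Most members had lower values in cKO than in WT macrophages, before and after LPS, yet Klf6 after LPS was the only one to pass. At 0 h, 8 of the 9 differences were below 0, where 52.2% of all tested genes were, and their median was -0.72 against -0.01. In 7 of the 9 both cKO samples lay below both WT samples, as in 21.9% of all tested genes, and in 1, Klf10, both lay above (19.3% of all). Among the 7, the nearest cKO and WT samples were close in Egr2 (10.26 and 10.27) and Nr4a3 (3.86 and 3.89). Of the 9, 0 passed with limma and 5 had an unadjusted p under 0.05 (10.9% of all tested genes did). The authors' deposited table also called 0 of them, and 0.319% of all its genes. The limma background was low, with 0.251% of all tested genes called, 0.199% lower and 0.052% higher in cKO. After LPS all 9 differences were below 0 (54% of all genes), with a median of -0.73 against -0.03. In 6 of the 9 the groups did not overlap, with cKO lower (29.7% of all). With limma 3 of the 9 had an unadjusted p under 0.05, where 21.5% of all tested genes did. After adjustment 1 passed, as lower (3.97% of all tested genes passed and 2.46% were lower). The median at 0 h became -0.50 when WT 0 h replicate 1 was left out and -1.20 when replicate 2 was, and after LPS it was -0.37 without WT LPS replicate 1. The sums of macrophage and of classical monocyte markers, which mainly follow Lyz2 and Ly6c2, were lower in cKO as well. Of their genes, limma called 0 of 9 and 0 of 3 at 0 h. After LPS it called 2 of 9 (Mertk and Itgam) and 0 of 3. The part of these markers in the genotype differences was not tested.

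Klf6 fell short of WT in cKO after LPS, with a difference of -0.81 or a 1.76-fold lower level (limma, SE 0.13, adjusted p = 0.0197), and differed by -0.43 at 0 h (limma, SE 0.13, adjusted p = 0.284), with no overlap at either time. The cKO LPS samples at 11.83 and 11.93 stood just above the WT resting samples. The authors' deposited table gave -0.83 after LPS (adjusted p = 0.00174). The limma call ended with no filter on low values (adjusted p = 0.0583), under quantile normalization (-0.50, adjusted p = 0.0937) and without WT LPS replicate 1 (adjusted p = 0.0884), cKO LPS replicate 1 (adjusted p = 0.133) or cKO LPS replicate 2 (adjusted p = 0.158). Over all genes, the 458 calls of this comparison (174 higher, 284 lower) became 115 higher and 120 lower under quantile normalization, 14 without WT LPS replicate 1 and 0 without either cKO LPS library.

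Egr1 had the widest gap between genotypes of the 9 members in the fit of all 8 samples. Its difference was -2.03 at 0 h, 4.09-fold (limma, SE 0.64, adjusted p = 0.301), and -2.60 after LPS, 6.04-fold (limma, SE 0.64, adjusted p = 0.0634). The highest cKO sample was below the lowest WT sample at each time, by the values given above. With cKO 0 h replicate 2 left out, the 0 h difference was -1.20 (adjusted p = 0.837), and those of Klf4 (-1.81) and Nr4a2 (-1.40) were wider. The authors' deposited table had -2.12 for the resting cells (adjusted p = 0.644) and, with LPS, -2.98 (adjusted p = 0.00331), the latter a call. In limma the difference after LPS also passed in a fit of the 4 LPS samples alone (adjusted p = 0.0283). It did not pass with no filter on low values (limma adjusted p = 0.25) or under quantile normalization (-2.39, limma adjusted p = 0.0995). It ran from -3.28 to -1.91 in the fits that left out 1 library, and 4 of the 16 alternatives gave a call. Egr2 differed by -0.47 at 0 h (limma, adjusted p = 0.696) and -0.35 after LPS (limma, adjusted p = 0.618), within intervals of -1.28 to 0.34 and -1.16 to 0.46. The intervals of Egr1 were -3.50 to -0.56 and -4.07 to -1.12, which overlap those of Egr2, and the difference between the genes was not tested.

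Klf4 differed by -1.76 in cKO at 0 h, 3.39-fold (limma, SE 0.46, adjusted p = 0.235), and by -0.65 after LPS (limma, SE 0.46, adjusted p = 0.456). It was the only member in which all 4 cKO samples lay below all 4 WT samples, a pattern of 2.64% of all tested genes and singled out after its values were seen. With WT 0 h replicate 1 left out the difference at 0 h was -0.87 (adjusted p = 0.381), and with replicate 2 left out it was -2.65 (adjusted p = 0.0106). The Nr4a differences at 0 h were -0.55 for Nr4a1 (limma, SE 0.52, adjusted p = 0.771), -1.18 for Nr4a2 (limma, SE 0.48, adjusted p = 0.429) and -0.72 for Nr4a3 (limma, SE 0.31, adjusted p = 0.459). After LPS they were -0.73 (SE 0.52), -0.79 (SE 0.48) and -0.85 (SE 0.31), and their limma adjusted p-values were 0.456, 0.381 and 0.162. Klf2 differed by -0.86 at 0 h (SE 0.33) and -0.51 after LPS (SE 0.33), with limma adjusted p-values of 0.408 and 0.414. Klf10 was the one member with a higher mean in cKO at 0 h, by 0.13 (limma, SE 0.16, adjusted p = 0.837), and differed by -0.22 after LPS (limma, SE 0.16, adjusted p = 0.469).

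No member passed the test of whether LPS acted differently in the 2 genotypes: with limma 0 of 9 passed, as did 0% of all tested genes, and 0 of 9 had an unadjusted p under 0.05, where 6.51% of all did. The estimates ran from -0.56 for Egr1 to 1.11 for Klf4 (limma, SE 0.65, interval -0.38 to 2.60). The intervals were wide, and that of Egr1 ran from -2.64 to 1.52 and that of Nr4a1 from -1.85 to 1.49. The narrowest were those of Klf6 (-0.81 to 0.04) and Klf10 (-0.88 to 0.17).

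**Figure D4:**
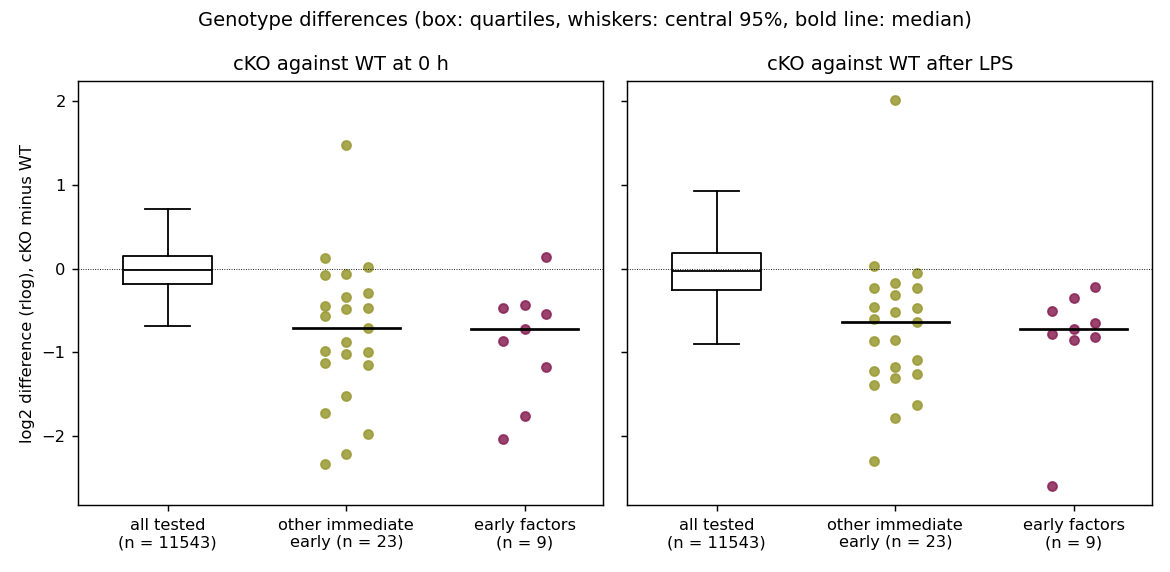
Differences between cKO and WT at 0 h and after LPS for all tested genes (box with quartiles, whiskers over the central 95%), 23 other immediate early genes and the 9 tested members, with the median as a bold line. The medians of the early factors are -0.72 and -0.73 and those of the other immediate early genes -0.71 and -0.63, while the boxes of all genes are centred near 0.

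Several of these genes differed between WT replicates by more than most tested genes did. In WT at 0 h replicate 1 was above replicate 2 in 8 of 9 members, by a median of 0.97, and 5 exceeded 0.72, the gap that 95% of tested genes stayed within. Nr4a1 differed by 1.91, Klf4 by 1.78, Egr1 by 1.31, Nr4a2 by 1.23 and Nr4a3 by 0.97. In WT after LPS replicate 1 was again above in 8 of 9, with a median of 0.72 and gaps of 1.36 for Egr1, 1.28 for Nr4a2 and 1.05 for Klf2, where 0.81 held 95% of genes. In cKO the median gap was -0.11 at 0 h and -0.04 after LPS, and 3 and 4 of the 9 were higher in replicate 1. Egr1 was the only member with replicate 1 above replicate 2 in all 4 groups (1.31, 1.36, 1.66 and 0.66), which 9.99% of tested genes also showed (8.66% showed the reverse), and Egr2 differed by 0.86 and 0.72 in the cKO groups. The sum of the classical monocyte markers mainly follows Ly6c2. It was also higher in WT replicate 1 than in WT replicate 2, by the values in the opening, and near equal in the cKO pairs. Its part in the replicate gaps was not tested.

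**Figure D5:**
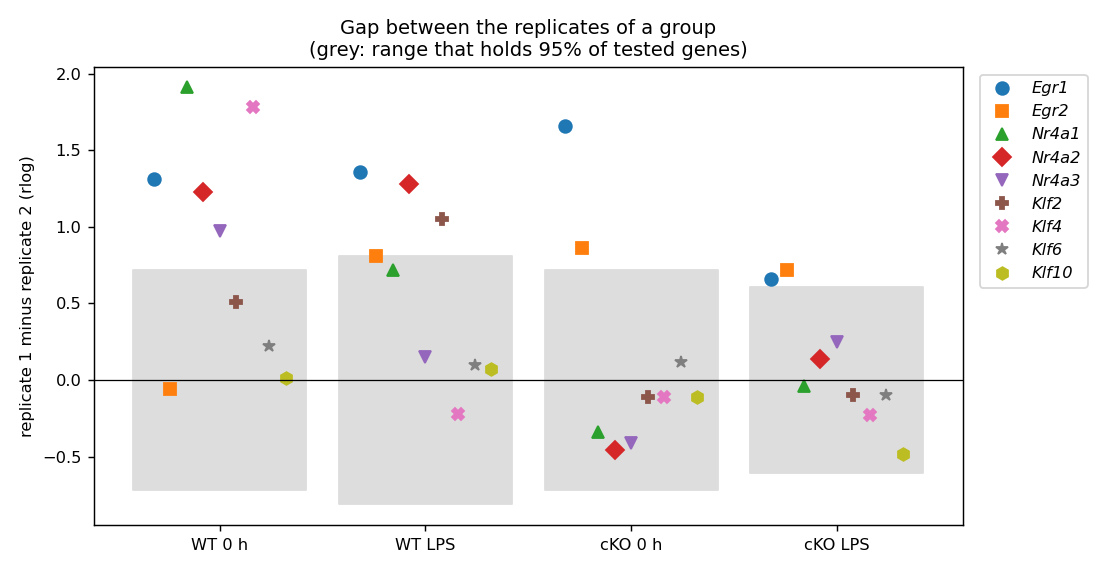
Replicate 1 minus replicate 2 (rlog) of the 9 tested members in each group; the grey band holds 95% of all tested genes. Points above the band are Egr1, Nr4a1, Nr4a2, Nr4a3 and Klf4 in WT at 0 h, Egr1, Egr2, Nr4a2 and Klf2 in WT after LPS, and Egr1 and Egr2 in the cKO groups.

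Across the 8 samples the members formed no single profile. Over the 36 pairs, Pearson's r ran from -0.66 (Klf6 and Klf10) to 0.91 (Nr4a2 and Klf2), with a median of 0.53, and 6 were below 0. Nr4a3 followed Klf6 (r = 0.86) more than it followed Nr4a1 (r = 0.06), while Egr2 went with Klf10 (r = 0.81) and Nr4a1 (r = 0.79). Egr1 went with Nr4a2 (r = 0.81) and Klf2 (r = 0.81). All points share the 4 groups, so a common LPS or genotype difference alone gives a high r. Among 10180 other tested genes, the closest to Egr1 were Rasal3 (r = 0.982) and Tmem221 (r = 0.979), and to Klf4 St7 (r = 0.958) and Katnbl1 (r = 0.927). N4bp3 (r = 0.993) and Chchd3 (r = 0.991) were closest to Egr2, and Ptbp3 (r = 0.993) and Mgat4a (r = 0.991) to Klf6. The closest to Nr4a1 were Paf1 (r = 0.978) and Camk1d (r = 0.975), to Nr4a2 the platelet factor gene Pf4 (r = 0.96) and Tcea3 (r = 0.958), and to Nr4a3 the protease inhibitor gene Cst3 (r = 0.972) and Gatad2b (r = 0.965). Those of Klf2 were Fam107b (r = 0.984) and Cdk5rap1 (r = 0.976), and those of Klf10 the mismatch repair gene Pms2 (r = 0.985) and Kiz (r = 0.983).

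Other genes of these families were taken from a fixed list. Of its 19 Egr, Klf and Sp genes 10 passed the filter. Egr4 was at -2.31 in every sample, and Klf17 and Sp5 were listed at 0. LPS raised 1 and lowered 2 of the 10 in WT and raised 3 and lowered 1 in cKO. The repressor gene Klf3 rose in both, by 1.5 in WT (limma, SE 0.19, adjusted p = 0.000356) and 1.21 in cKO (limma, SE 0.19, adjusted p = 0.0014). Klf13 fell by 1.19 in WT (limma, SE 0.35, adjusted p = 0.025), and Sp3, a GC box factor, fell by 0.62 in WT and 0.44 in cKO (limma adjusted p = 0.0101 and 0.0485). Between genotypes 0 of 10 passed with limma at either time (unadjusted p under 0.05 in 1 at rest and 0 with LPS), and the medians were 0.03 and 0.14.

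Genes that act upstream or as partners had genotype medians near 0. Of 15 tested SRF, MEF2 and CREB family factors, 0 passed between genotypes with limma (unadjusted p under 0.05 in 2 at rest and 4 with LPS), with medians of -0.13 and -0.12. Srf itself differed by -0.23 at 0 h and -0.13 after LPS (limma adjusted p = 0.777 and 0.769). With LPS 3 rose and 2 fell in each genotype. Elk3, an SRF partner, rose by 1.25 in WT and 1.26 in cKO, and Mrtfb, an SRF coactivator gene, fell by 1.29 and 1.27. Of 19 kinase genes of the ERK and ERK5 cascades, 4 rose and 2 fell in WT and 5 rose and 5 fell in cKO, led by Map2k1, which encodes MEK1 (1.75 and 1.67), and by Rps6ka1 (-1.54 and -1.23). After LPS 1 of the 19 was higher in cKO, Map2k2, the gene of MEK2 (1.24, limma, SE 0.24, adjusted p = 0.0328). Of 8 tested partners and corepressors, LPS raised 3 and lowered 1 in WT and raised 2 in cKO. Rxra, a partner of Nr4a1 and Nr4a2, rose in both (0.55 and 1.08). Of the 8, 0 passed between genotypes with limma, where an unadjusted p under 0.05 was seen for 1 at rest and 0 with LPS. Nab2, a corepressor that Egr proteins induce, differed by 0.48 at 0 h and 0.32 after LPS (limma adjusted p = 0.393 and 0.336).

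Other immediate early genes also had lower values in cKO. Their median over 23 tested genes was -0.71 at 0 h and -0.63 after LPS, and 15 had an unadjusted p under 0.05 at each time, where 10.9% of all tested genes did at 0 h and 21.5% after LPS, but 1 passed at 0 h and 2 after LPS. Jun, of the AP-1 factor, was at 12 and 11.18 in WT and 9.60 and 9.15 in cKO at 0 h (-2.22, limma, SE 0.31, adjusted p = 0.0389). After LPS the prostaglandin synthase gene Ptgs2 (-2.29, limma, SE 0.43, adjusted p = 0.0306) and Csrnp1 (-1.30, limma, SE 0.24, adjusted p = 0.0274) were lower. Ier2 had the opposite sign, at 1.48 and 2.01 (limma adjusted p = 0.423 and 0.0936). Of 6 tested ERK feedback inhibitors, Dusp1, a phosphatase gene that early signals induce, was lower in cKO at both times (-1.71 and -1.51, limma adjusted p = 0.0347 and 0.0178). In a fit of only the groups compared, 0 genes passed at 0 h, so the Jun and Dusp1 calls at that time ended. Genotype calls after LPS, that of Map2k2 included, also depended on the libraries fitted, as given in the last section. LPS raised Spred1 (2.82 in WT and 2.52 in cKO) and Dusp4 (1.86 and 2.14). With LPS, 7 immediate early genes rose and 7 fell in WT, and 8 rose and 5 fell in cKO. Ptgs2 rose by 4.50 and 4.55 and Gadd45b by 2.72 and 2.57, while Fos (-1.28 and -1.34) and Btg2 (-1.10 and -1.28) fell in both. Jun (-1.41) and Fosb (-1.38) fell in WT and differed by -0.46 and -1.02 in cKO (limma adjusted p = 0.292 and 0.121), and the interaction did not pass for either (limma adjusted p = 0.764 and 0.944).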

How the data were processed

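RNA was sequenced from 8 macrophage samples in 4 groups of 2. The tools DESeq2, featureCounts, HISAT2 2.1.0 and CASAVA and the build GRCm38 are named, per the submitters' processing notes, without settings or roles. The authors deposited rlog values, a log2 scale, for 55226 genes, and a table of log2 fold changes, p-values and their adjusted form for 4 comparisons, with no interaction. No read counts were used here, so depth is unknown and no counting interval is given. In all, 26727 genes (48.4%) were listed at 0 in every sample.

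From these values, limma 3.58.1 (R 4.3.3) fitted 4 group means to all 8 samples, with a variance trend and a minimum mean rlog of 3, which left 11543 genes. The fit was tested on simulated data. Gene models came from GENCODE M21 (GRCm38) and promoter windows from RefSeq (GRCm38.p6). None of the 10 members overlaps another annotated gene. Alternatives changed the filter, normalization, variance model, samples fitted and replicate block, and left out each library.

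The members and lists were chosen with earlier results of these data known. Named besides the members were, per list and comparison, up to 2 genes with the largest rise and 2 with the largest fall among those called with groups that did not overlap, the 2 genes most correlated with each member, and Paxip1. Other genes (Srf, Nab2, Ier2, the markers, and low family genes) were chosen after their values were seen. Some marker genes are not reported here and were left out of the marker sums.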

Additional observations from a re-analysis of the deposited data

How the results depend on the processing

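The 9 members gave 728 differences under the alternatives, of which 669 kept their direction and side of the threshold, 17 lost their call, 18 gained one and 24 changed sign, all 24 in fits that left out a library. Members called with LPS in WT rose from 3 to 5 with a replicate block by number (adding Nr4a1 and Klf2) and to 6 with a block by culture (adding Klf4 as well). In cKO they rose from 4 to 5 with either block, the added gene being Egr1 (limma adjusted p = 0.00381 and 0.00403). Between genotypes at 0 h, genes called went from 29 to 114 with no filter, 9 with no variance trend, 0 with only the groups compared and 72 with the replicate block by number, and members called from 0 to 1 with that block (Egr1, limma adjusted p = 0.0113). After LPS, genes called went from 458 to 208 with no filter, 235 with quantile normalization, 301 with no variance trend and 804 with the replicate block by number, and members called from 1 to 0 with no filter or quantile normalization and to 2 with only the groups compared or that block, the added gene being Egr1 (limma adjusted p = 0.0283 and 0.0028). The interaction went from 0 to 10 genes with no filter. The titles give the same replicate number at the 2 times, but no mouse or day is stated for it. Replicate gaps of the 2 times correlated at 0.22 in WT and 0.31 in cKO. Between groups of different genotype they correlated at -0.04 to 0.2. Whether the 2 times of a number share a culture is not known, so both blocks were kept out of the main fit. Leaving out 1 library gave 3661 to 4770 genes and 2 to 4 members with LPS in WT, 2684 to 4468 and 3 to 4 in cKO, 2 to 128 and 0 to 1 between genotypes at 0 h, and 0 to 582 and 0 to 2 after LPS. The interaction gave 0 genes in all of these. Signs changed for LPS in WT in Egr1 (-1.28 to 0.09) and Nr4a2 (-1.22 to 0.06), and in cKO in Nr4a2 (-0.42 to 0.04) and Klf4 (-0.18 to 0.05). Between genotypes they changed in Nr4a1 at 0 h (-1.50 to 0.41) and, after LPS, in Egr2 (-0.76 to 0.06), Klf2 (-1.03 to 0.01) and Klf10 (-0.46 to 0.02). In the interaction they changed in Egr1 (-1.39 to 0.26), Egr2 (-0.31 to 0.55), Nr4a1 (-1.14 to 0.77), Nr4a2 (-0.25 to 1.03), Nr4a3 (-0.62 to 0.35) and Klf2 (-0.17 to 0.87). The cause was not tested, and a fit that left out a library took the lone sample of that group to vary like the others.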
